A study of Mus musculus with 12 samples.

Results

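The 10 genes described here mark successive steps of the oligodendrocyte lineage, from the precursor to the committed, pre-myelinating cell. They were listed by name, with earlier results of these data known: Pdgfra, Cspg4, Olig1, Olig2, Sox10, Nkx2-2, Gpr17, Bcas1, Enpp6 and Myrf, 10 of 48709 gene identifiers counted in every library, and all 10 passed the filter on low counts in every fit. RNA was sequenced from cells of E18 (embryonic day 18) hypothalamus of C57BL/6 mice that had been infected with a virus carrying a fluorescent reporter at a multiplicity of infection of 10, grown as floating neurospheres, given basic fibroblast growth factor (bFGF) at 10 ng/ml after 24 h, and dissociated and sorted a week later. Each of the 4 groups had 3 libraries. The first pair, mCherry-positive and mCherry-negative, came from cultures given an AAV whose mCherry reports HCRT (hypocretin) cells. The other pair, EGFP-positive and EGFP-negative, came from cultures given a lentivirus whose EGFP reports MCH (melanin-concentrating hormone) cells. All 4 groups were infected and all received bFGF, so the reporter-negative cells are not uninfected controls. The sorts differ in virus, reporter and RNA input for cDNA synthesis (0.8 ng in the mCherry sort, 2 ng in the EGFP sort), and these cannot be told apart in any comparison between sorts. The labels give neither the promoters that drive the reporters nor whether the 3 replicates of a group were separate cultures, so p-values measure the spread between these libraries, which may be technical.

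Oligodendrocyte precursors arise from neural progenitors under the control of the basic helix-loop-helix factor OLIG2 and divide in response to platelet-derived growth factor through its receptor PDGFRA. On leaving the cell cycle they lose PDGFRA and the NG2 proteoglycan, pass through a committed stage marked by GPR17, BCAS1 and ENPP6, and switch on MYRF, which drives the myelin genes together with SOX10. In the hypothalamus, as elsewhere in the brain, precursors are spread through the tissue and keep dividing after birth, and neurospheres grown from embryonic brain can give rise to neurons, astrocytes and oligodendrocytes.

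The libraries held 16.3 to 32.9 megareads in genes. Replicates of a group differed by more than sampling noise, with a chi-square per degree of freedom of 6.20 to 88.5, and each was counted as a separate sample. The mCherry-negative replicate 3 stood apart from the other libraries on the first principal components of log CPM (scores of -77.6 and -88.6). Its level is shown for each gene described, but only some results of the mCherry sort are also given without it. Hcrt, which defines the cells the mCherry reporter stands for, had 21 reads over the 3 mCherry-positive libraries and 11 over the 3 mCherry-negative libraries, so that transcript was close to absent from that sort. Pmch, the gene of MCH, averaged 18.4 ± 1.02 CPM in EGFP-positive cells and 4.59 ± 0.577 CPM in EGFP-negative cells (SD, n = 3 each). Expression levels below are TMM-scaled CPM, reads per megaread in genes on 1 scale over the 12 libraries, and are listed in the order of replicates 1, 2 and 3. These are bulk samples, so fewer cells of a type and less RNA per cell cannot be told apart.

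All 10 genes were lower in EGFP-positive than in EGFP-negative cells, and the fall was between 2.27-fold (Olig1) and 4.85-fold (Sox10). In this sort 10 of 10 genes were called lower and 0 of 10 higher by edgeR's quasi-likelihood test at an adjusted p under 0.05 over all 16326 genes tested, of which 7.07% were called lower and 8.99% higher. In all 10 every EGFP-positive library lay under every EGFP-negative library, which held for 16.9% of genes. Their median log2 fold change was -1.86, against -0.01 over all genes tested. The share of gene reads from mitochondrial genes was 0.766% to 0.872% in EGFP-positive libraries against 1.16% to 1.36% in EGFP-negative ones, and 1.06% to 1.54% in mCherry-positive against 0.805% to 0.953% in mCherry-negative libraries. It was thus apart in both sorts and in opposite directions, and its part in the results was not tested. In the mCherry sort 0 of 10 genes were called in either direction, against 0.541% of 17369 genes called higher and 0.656% called lower. Their median log2 fold change there was -0.43, against 0.02 over all genes. Among the 10, 4 had an unadjusted p under 0.05 (18.6% of all genes did): Olig1, Olig2 and Sox10 with a negative and Enpp6 with a positive log2 fold change. DESeq2 and limma-voom each called 2 genes lower, Olig1 and Olig2, and the edgeR count was 0 without any single mCherry library. In 3 of these 6 fits (without mCherry-positive replicate 3 or mCherry-negative replicate 1 or 2) 0 of all genes tested were called, although 2439 to 3673 had an unadjusted p under 0.05, so a count of 0 among the members carries no information there.

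**Figure D1:**
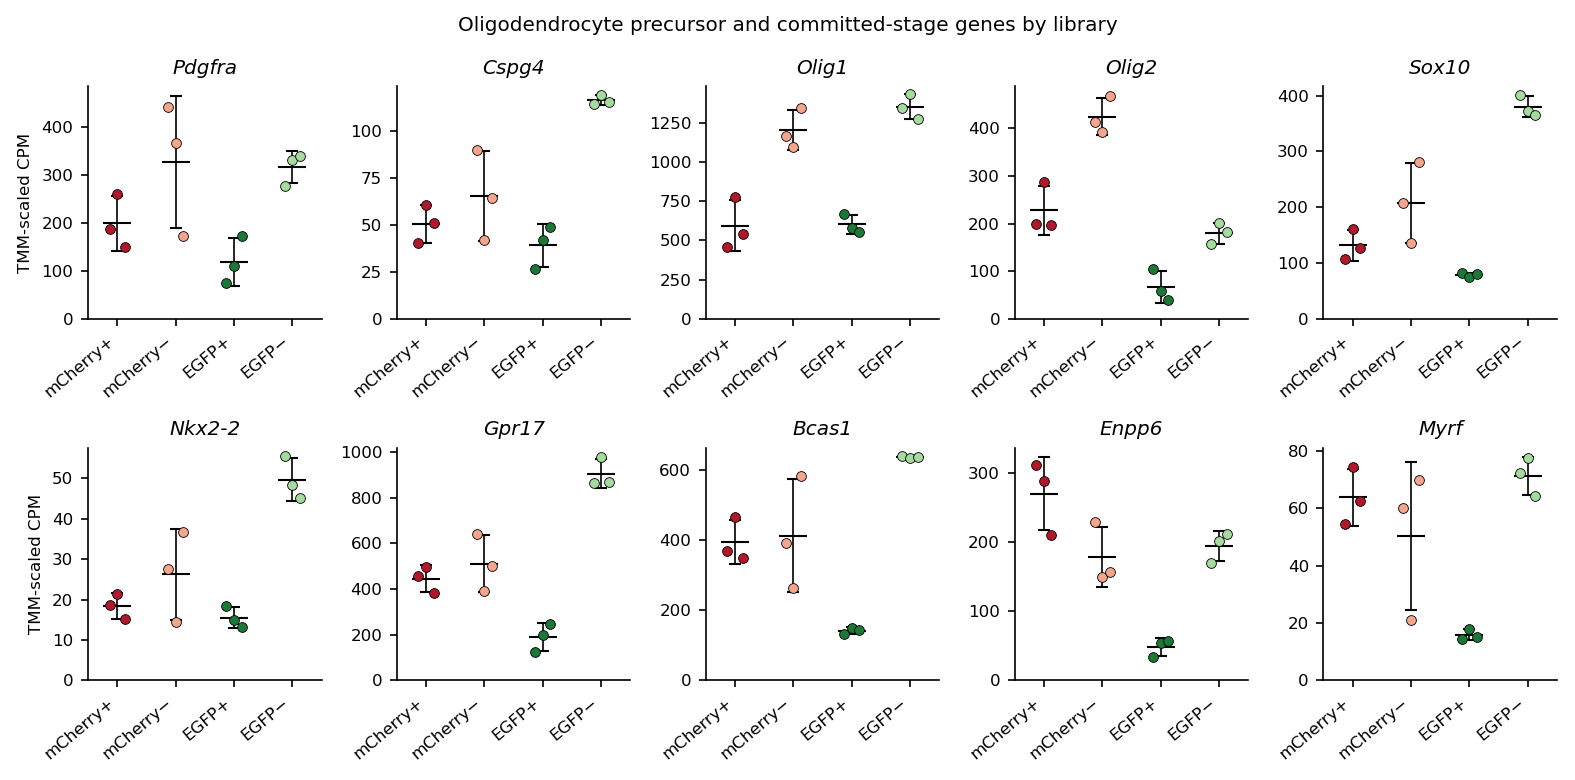
TMM-scaled CPM of the 10 genes in each library (points), with the group mean and SD (horizontal and vertical lines, n = 3), in cells of the 2 mCherry groups and the 2 EGFP groups, each positive before negative. Every gene is lower in the 3 EGFP-positive libraries than in the 3 EGFP-negative ones, whereas the mCherry groups overlap for 8 of the 10 genes, Olig1 and Olig2 being the exceptions.

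Pdgfra, the receptor for platelet-derived growth factor A that keeps precursors dividing, lies on GRCm38 chromosome 5 (75152292 to 75198215, plus strand). It stood at 187, 261 and 150 CPM in mCherry-positive libraries, against 441, 367 and 174 CPM in mCherry-negative libraries. It stood at 74.7, 110.5 and 173 CPM in EGFP-positive libraries, against 278, 330.4 and 340.2 CPM in EGFP-negative libraries. The mCherry groups overlapped because mCherry-negative replicate 3 lay among the positive libraries, while the EGFP groups were apart. The mCherry sort gave a log2 fold change of -0.71 ± 0.33 (SE) and an adjusted p of 0.284; without mCherry-negative replicate 3 the adjusted p was 0.126. In the EGFP sort Pdgfra fell by 1.42 ± 0.26 (SE) on the log2 scale, with an adjusted p of 0.00652. Fibroblast-like cells also express Pdgfra, and the summed level of 10 fibroblast and mesenchymal genes was 40.3 to 70.2 CPM in EGFP-positive libraries against 384 to 420.3 CPM in EGFP-negative ones, apart in the same direction as Pdgfra. In the mCherry sort the sum was 188, 10.1 and 130 CPM in mCherry-positive libraries against 406, 168 and 123 CPM in mCherry-negative ones. The mCherry groups overlapped in it, and mCherry-positive replicate 2, the highest of that group in Pdgfra, was the lowest of all 12 libraries in the sum. Their part in the Pdgfra result was not tested.

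Cspg4, the gene of the NG2 proteoglycan on the surface of precursors and of pericytes, lies on chromosome 9 (56865033 to 56899870, plus strand). It stood at 40.3, 60.5 and 50.9 CPM in mCherry-positive libraries, against 89.8, 41.9 and 64.3 CPM in mCherry-negative libraries. In EGFP-positive libraries it stood at 26.4, 41.7 and 49.0 CPM, against 114, 119 and 116 CPM in EGFP-negative libraries. The EGFP-negative libraries lay close together and above all others, while the mCherry groups overlapped. Cspg4 fell by 1.59 ± 0.20 (SE) on the log2 scale in the EGFP sort, with an adjusted p of 0.00131, and the mCherry sort gave -0.36 ± 0.28 (SE) and an adjusted p of 0.523. Of 10 pericyte genes 6 passed the filter in the EGFP sort, where 1 was called higher (Pdgfrb, at 37.1 ± 8.36 CPM in EGFP-positive and 20.7 ± 2.13 CPM in EGFP-negative cells) and 1 lower (Vtn, at 6.11 ± 1.04 and 22.8 ± 2.23 CPM, SD, n = 3 each). Higd1b was at 0 in every library of the mCherry-negative, EGFP-positive and EGFP-negative groups, and Abcc9 and Anpep were at 0 in every EGFP-positive library. The summed pericyte level was 98.5 to 144 CPM in EGFP-positive libraries, against 99.9 to 108 CPM in EGFP-negative ones. That sum joins genes that differed in opposite directions, and the part of pericytes in the Cspg4 result was not tested. In the mCherry sort it was 71.1 to 94.7 CPM in mCherry-positive and 48.1 to 83.6 CPM in mCherry-negative libraries, and 0 of 8 pericyte genes tested were called.

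Olig1 and Olig2 encode neighbouring basic helix-loop-helix factors, OLIG2 being needed to specify the lineage and OLIG1 acting in its maturation. Olig1 (chromosome 16, 91269772 to 91271933, plus strand) stood at 461, 776 and 544 CPM in mCherry-positive libraries, against 1165, 1098 and 1346 CPM in mCherry-negative libraries. It stood at 671, 581 and 554 CPM in EGFP-positive libraries, against 1343, 1433 and 1276 CPM in EGFP-negative libraries. The positive libraries of both sorts shared a range, the negative libraries of both sorts shared another, and the ranges were apart. The mCherry sort gave a log2 fold change of -1.01 ± 0.22 (SE) and an adjusted p of 0.0598 for it, and it fell by 1.19 ± 0.10 (SE) in the EGFP sort, with an adjusted p of 2.42e-04.

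Olig2 (chromosome 16, 91225457 to 91228677, plus strand) stood at 199.5, 286 and 197 CPM in mCherry-positive libraries, against 413, 392 and 466 CPM in mCherry-negative libraries. It stood at 105, 58.2 and 39.0 CPM in EGFP-positive libraries, against 157, 200.1 and 181 CPM in EGFP-negative libraries. Positive and negative libraries were apart in both sorts, and the EGFP-positive libraries spread most among the 4 groups relative to their mean (a coefficient of variation of 50.3%). The mCherry sort gave -0.89 ± 0.20 (SE) on the log2 scale, with an adjusted p of 0.062. Olig2 fell by 1.44 ± 0.30 (SE) in the EGFP sort, with an adjusted p of 0.0118. That call was lost without EGFP-positive replicate 2 (adjusted p 0.0646) or EGFP-negative replicate 2 (adjusted p 0.0531). Olig1 and Olig2 were the 2 of 10 genes whose mCherry-positive libraries all lay under the mCherry-negative ones, which held for 14.0% of genes. They passed the threshold in the mCherry sort without the expression filter (adjusted p of 0.0138 for Olig1 and 0.0219 for Olig2), with a stricter filter (0.0471 and 0.0499), with DESeq2 (5.11e-04 and 0.00121) and with limma-voom (0.0409 and 0.0448).

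Sox10, a factor of the whole lineage that acts on myelin genes, lies on chromosome 15 (79154908 to 79165240, minus strand). It stood at 107, 161 and 127 CPM in mCherry-positive libraries, against 208, 136 and 280.3 CPM in mCherry-negative libraries. It stood at 82.6, 75.2 and 80.4 CPM in EGFP-positive libraries, against 401, 373 and 365 CPM in EGFP-negative libraries. The mCherry groups overlapped, since mCherry-negative replicate 2 lay under mCherry-positive replicate 2, and the EGFP groups were far apart with little spread. Sox10 fell by 2.28 ± 0.10 (SE) in the EGFP sort, with an adjusted p of 1.3e-05. Only 0.845% of genes tested had a lower log2 fold change. The mCherry sort gave -0.65 ± 0.27 (SE) on the log2 scale and an adjusted p of 0.232.

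Nkx2-2, a homeobox factor that times differentiation of precursors, lies on chromosome 2 (147177546 to 147194243, minus strand). It stood at 18.6, 21.5 and 15.2 CPM in mCherry-positive libraries, against 27.5, 14.4 and 36.7 CPM in mCherry-negative libraries. It stood at 18.4, 14.9 and 13.2 CPM in EGFP-positive libraries, against 55.4, 48.2 and 45.2 CPM in EGFP-negative libraries. The EGFP-positive and both mCherry groups shared a low range, and the EGFP-negative libraries lay above it. Nkx2-2 fell by 1.70 ± 0.17 (SE) in the EGFP sort, with an adjusted p of 4.49e-04, and the mCherry sort gave -0.50 ± 0.33 (SE) and an adjusted p of 0.449. Of its exonic bases 9.67% lie in exons of the antisense gene Nkx2-2os. The strand setting of the counting is not known here, so reads from such stretches cannot be assigned to either gene. The same holds for 12.6% of the exonic bases of Bcas1, 7.26% of Olig1, 6.21% of Pdgfra and 3.62% of Gpr17.

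Gpr17, a G protein-coupled receptor that is switched on in committed precursors and off again before myelination, lies on chromosome 18 (31942997 to 31949636, minus strand). It stood at 456, 498 and 384 CPM in mCherry-positive libraries, against 639, 391 and 503 CPM in mCherry-negative libraries. It stood at 125, 197 and 246 CPM in EGFP-positive libraries, against 864, 977 and 870.3 CPM in EGFP-negative libraries. The mCherry libraries overlapped throughout and lay between the EGFP groups. Gpr17 fell by 2.27 ± 0.21 (SE) in the EGFP sort, with an adjusted p of 3.71e-04, while the mCherry sort gave -0.19 ± 0.21 (SE) and an adjusted p of 0.669.

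Bcas1, a protein of early myelinating oligodendrocytes, lies on chromosome 2 (170346991 to 170427845, minus strand). It stood at 369, 465 and 349 CPM in mCherry-positive libraries, against 391, 262 and 582 CPM in mCherry-negative libraries. It stood at 132, 149.9 and 144 CPM in EGFP-positive libraries, against 638, 632 and 636 CPM in EGFP-negative libraries. The EGFP groups hardly varied within themselves (coefficients of variation of 6.47% in EGFP-positive and 0.445% in EGFP-negative cells), whereas the mCherry-negative libraries spanned the whole mCherry-positive range. Bcas1 fell by 2.18 ± 0.10 (SE) in the EGFP sort, with an adjusted p of 1.3e-05. The mCherry sort gave -0.05 ± 0.27 (SE) and an adjusted p of 0.94; leaving out mCherry-negative replicate 3 turned the sign, to 0.30 with an adjusted p of 0.598.

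Enpp6, a choline-phosphodiesterase of newly forming oligodendrocytes, lies on chromosome 8 (46986887 to 47096762, plus strand). It stood at 312, 288 and 211 CPM in mCherry-positive libraries, against 229, 150.5 and 157 CPM in mCherry-negative libraries. It stood at 34.4, 53.6 and 57.8 CPM in EGFP-positive libraries, against 170.1, 201 and 212 CPM in EGFP-negative libraries. The mCherry groups overlapped, since mCherry-negative replicate 1 lay above mCherry-positive replicate 3, and the EGFP-positive libraries were the lowest of all. Enpp6 fell by 2.01 ± 0.19 (SE) in the EGFP sort, with an adjusted p of 4.17e-04, and had a log2 fold change of 0.61 ± 0.22 (SE) in the mCherry sort, with an adjusted p of 0.19.

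Myrf, the membrane-bound factor that starts the myelin program, lies on chromosome 19 (10208272 to 10240748, minus strand). It stood at 54.5, 74.3 and 62.4 CPM in mCherry-positive libraries, against 60.1, 20.9 and 69.8 CPM in mCherry-negative libraries. It stood at 14.4, 18.1 and 15.2 CPM in EGFP-positive libraries, against 72.1, 77.5 and 64.4 CPM in EGFP-negative libraries. The mCherry-positive and EGFP-negative libraries overlapped, the EGFP-positive libraries lay under all others, and mCherry-negative replicate 2 was the lowest library outside the EGFP-positive group. Myrf fell by 2.18 ± 0.15 (SE) in the EGFP sort, with an adjusted p of 7.48e-05. The mCherry sort gave 0.36 ± 0.37 (SE) and an adjusted p of 0.64, and leaving out mCherry-negative replicate 2 gave -0.01.

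**Figure D2:**
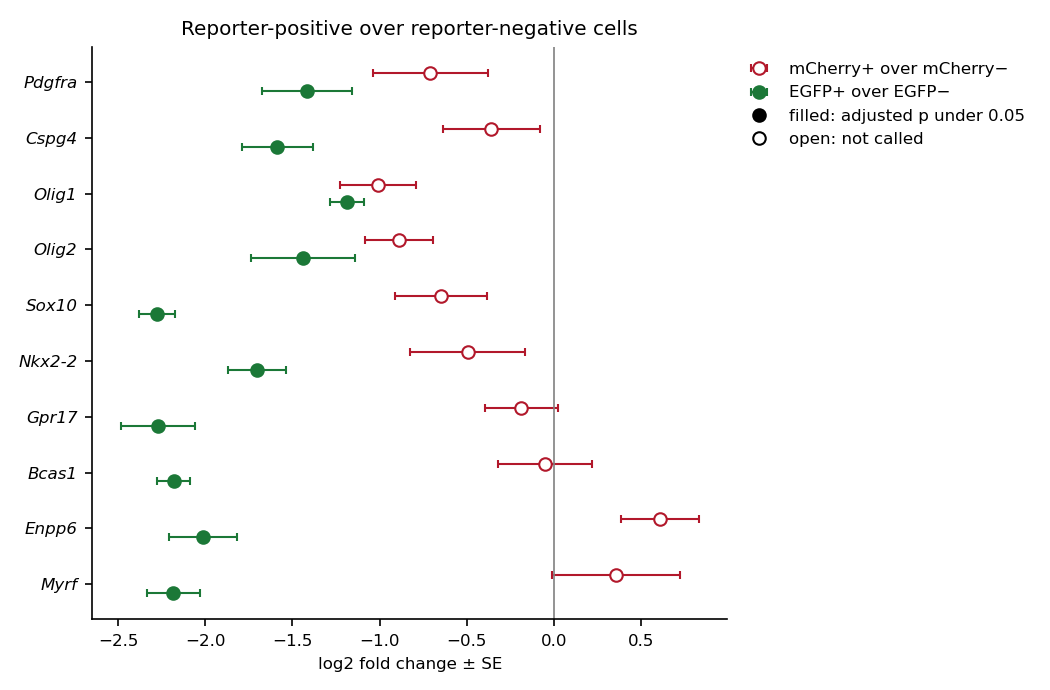
Log2 fold change (± SE) of each gene, mCherry-positive over mCherry-negative and EGFP-positive over EGFP-negative, each from its own 6 libraries, with filled points for an adjusted p under 0.05. The EGFP values lie between -2.28 and -1.19 and are all called, and the mCherry values lie between -1.01 and 0.61 and none is called.

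The EGFP effect was more negative than the mCherry effect for the genes of the committed stage and for Sox10. In 1 fit of all 12 libraries the difference, mCherry effect minus EGFP effect on the log2 scale, was called for 5 of 10 genes, all of them positive, against 0.886% of 18063 genes called positive. It was 2.59 ± 0.32 (SE) for Enpp6, with an adjusted p of 0.00254, and 2.51 ± 0.45 (SE) for Myrf, with an adjusted p of 0.0202. For Bcas1 it was 2.10 ± 0.31 (SE), with an adjusted p of 0.00881, and for Gpr17 it was 2.06 ± 0.32 (SE), with an adjusted p of 0.0109. For Sox10 it was 1.60 ± 0.31 (SE), with an adjusted p of 0.0265. The 5 genes not called had differences of 1.202 (Cspg4, adjusted p 0.139), 1.18 (Nkx2-2, 0.165), 0.69 (Pdgfra, 0.525), 0.52 (Olig2, 0.568) and 0.15 (Olig1, 0.828). The median of the 10 was 1.40, against -0.03 over all genes. Sox10 and Myrf were not called without EGFP-positive replicate 2 or without any one of the 3 EGFP-negative libraries, at adjusted p of 0.0693 to 0.0827 for Sox10 and 0.0579 to 0.0617 for Myrf. Enpp6, Bcas1 and Gpr17 were called without any single library. This fit uses a single spread per gene over both sorts, although the mCherry libraries varied more.

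Set side by side, mCherry-positive cells held more transcript of 6 of the 10 genes than EGFP-positive cells. Against 9.90% of 18063 genes called higher, Enpp6 was higher by 2.48 ± 0.23 (SE) on the log2 scale (adjusted p 3.2e-05), Myrf by 2.00 ± 0.33 (0.0011) and Olig2 by 1.76 ± 0.28 (9.75e-04). Bcas1 was higher by 1.48 ± 0.22 (7.02e-04), Gpr17 by 1.24 ± 0.23 (0.00229) and Sox10 by 0.73 ± 0.22 (0.0331). In these 6 every mCherry-positive library lay above every EGFP-positive library, which held for 16.8% of genes. The Sox10 call was lost without mCherry-positive replicate 2 (adjusted p 0.139) or 3 (0.0729) and without EGFP-positive replicate 1 (0.0606), 2 (0.113) or 3 (0.0651). Pdgfra (0.74 ± 0.33, adjusted p 0.139), Cspg4 (0.37 ± 0.27, 0.359), Nkx2-2 (0.25 ± 0.28, 0.564) and Olig1 (-0.02 ± 0.17, 0.955) were not called. Other lists differed in the same comparison, in which 1385 of 18063 genes tested were called lower. Of 10 microglia genes 9 were higher (median log2 fold change 5.33), as were 5 of 13 neuron genes (median 0.85). Of 10 astrocyte genes 3 were lower (median -0.61), as were 10 of 10 cycling genes (median -1.41). The median over all genes was -0.02. The part of these genes of other cell types in this result was not tested.

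Between the reporter-negative cells the order was mixed. Olig2 was higher in mCherry-negative than in EGFP-negative cells, by 1.24 ± 0.28 (SE) on the log2 scale with an adjusted p of 0.0203, and Sox10 was lower, at -0.87 ± 0.22 (SE) with an adjusted p of 0.0378. Of all genes tested, 2.67% were called higher and 1.29% lower in this comparison. The libraries were apart with mCherry-negative higher for 1 gene, Olig2 (12.8% of all genes), and with mCherry-negative lower for 5 genes, Cspg4, Sox10, Nkx2-2, Gpr17 and Bcas1 (12.5% of all genes). The 4 of these 5 that were not called had log2 fold changes of -0.83 for Cspg4 (adjusted p 0.109), -0.92 for Nkx2-2 (0.0844), -0.82 for Gpr17 (0.0569) and -0.63 for Bcas1 (0.146). None of the 10 genes was called without any one of the 3 EGFP-negative libraries. Olig2 was at adjusted p of 0.0647 to 0.127 there and Sox10 at 0.0946 to 0.134. Over all genes these 3 fits still called 206 to 263 higher and 63 to 99 lower. Sox10 was also lost without mCherry-negative replicate 1 (0.0854) or 2 (0.0983). Without mCherry-negative replicate 3, 4 of the 10 genes were called, with Nkx2-2 (-1.26) and Bcas1 (-0.98) lower beside Sox10 (-1.16).

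**Figure D3:**
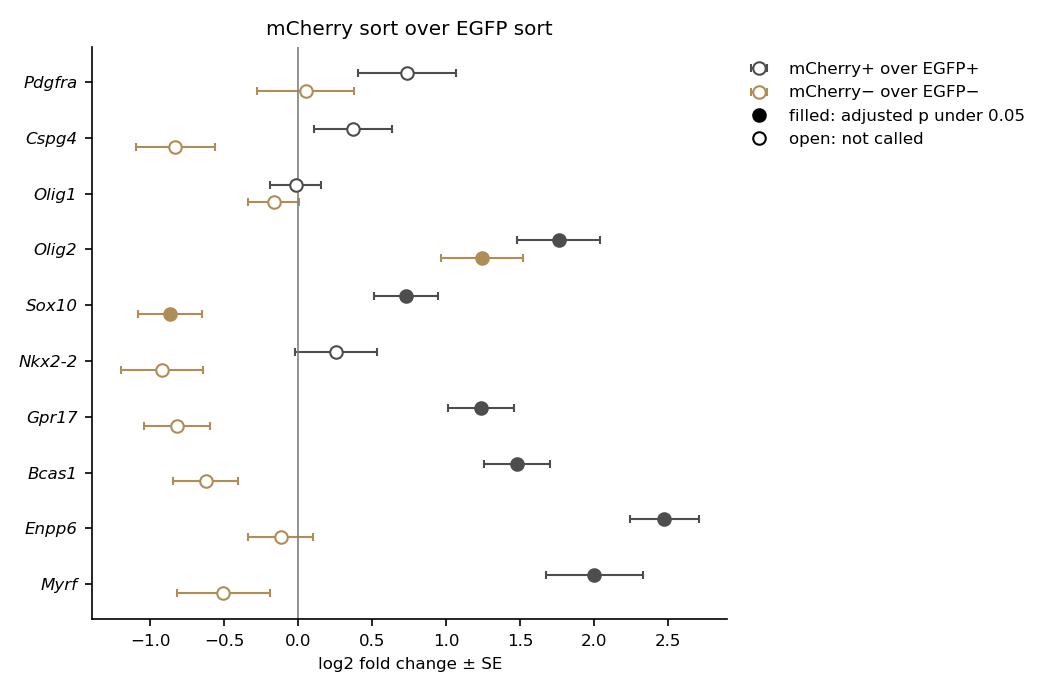
Log2 fold change (± SE) of each gene, mCherry-positive over EGFP-positive and mCherry-negative over EGFP-negative cells, from 1 fit of all 12 libraries, with filled points for an adjusted p under 0.05. Olig2 is higher in the mCherry sort in both comparisons (1.76 and 1.24), while Sox10 is higher among positive cells (0.73) and lower among negative cells (-0.87).

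Ratios between the genes within a library do not depend on how libraries are scaled. Those given here were chosen after the values had been seen, so their permutation p-values describe the separation and do not test it. They are per kilobase of exon. Olig2 ran at 0.331 ± 0.034 of Olig1 in mCherry-positive and 0.301 ± 0.0045 in mCherry-negative libraries, and at 0.0931 ± 0.0372 in EGFP-positive against 0.114 ± 0.0119 in EGFP-negative libraries (SD, n = 3 each). All mCherry libraries lay above all EGFP libraries, with an exact permutation p of 0.1 (2-sided) for the positive and for the negative groups, the smallest that 3 against 3 libraries allow. Sox10 relative to Olig2 ran the other way, at 0.483 ± 0.046 in mCherry-positive and 0.401 ± 0.106 in mCherry-negative libraries, and at 1.15 ± 0.533 in EGFP-positive against 1.78 ± 0.302 in EGFP-negative libraries (SD, n = 3 each), again with no overlap between sorts (exact permutation p of 0.1).

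Enpp6 relative to Pdgfra sets the committed against the precursor stage. The ratio was 2.61, 1.73 and 2.20 in mCherry-positive libraries, against 0.811, 0.641 and 1.41 in mCherry-negative libraries. It was 0.719, 0.758 and 0.521 in EGFP-positive libraries, against 0.958, 0.952 and 0.973 in EGFP-negative libraries. Positive and negative libraries were apart in both sorts, with the positive ones higher in the mCherry sort and lower in the EGFP sort (exact permutation p of 0.1 in each). This pair was chosen after the values had been seen, so that separation is not a test. Cspg4 relative to Pdgfra, both of the precursor stage, overlapped between positive and negative libraries in both sorts. Bcas1 relative to Pdgfra was 5.26, 4.73 and 6.18 in mCherry-positive libraries, against 2.35, 1.90 and 8.90 in mCherry-negative libraries, where replicate 3 stood apart and made the groups overlap. In the EGFP sort it was 4.69, 3.60 and 2.20 in EGFP-positive libraries, against 6.10, 5.08 and 4.96 in EGFP-negative libraries, with no overlap. The summed level of Gpr17, Bcas1, Enpp6 and Myrf relative to that of Pdgfra and Cspg4 was 10.9, 8.76 and 10.8 in mCherry-positive libraries, against 5.22, 4.25 and 12.5 in mCherry-negative libraries. It was 6.84, 6.07 and 4.49 in EGFP-positive libraries, against 9.94, 9.22 and 8.63 in EGFP-negative libraries.

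**Figure D4:**
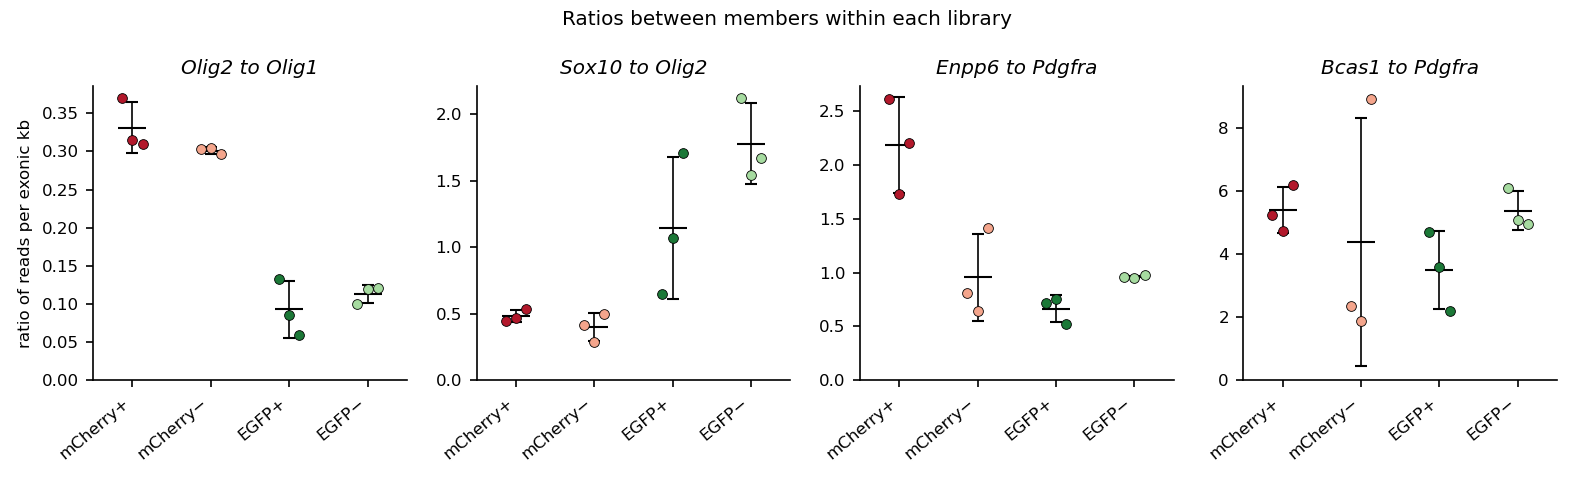
Ratio of reads per exonic kilobase between pairs of genes in each library (points), with the group mean and SD (lines, n = 3). Olig2 to Olig1 separates the mCherry libraries (0.296 to 0.370) from the EGFP libraries (0.0602 to 0.134), and Enpp6 to Pdgfra separates the mCherry-positive libraries (1.73 to 2.61) from the 9 others.

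Compared per length, as RPKM (reads per kilobase of exon per megaread), Olig1 was the most abundant of the 10 in every group, at 275 ± 75.7 RPKM in mCherry-positive, 557 ± 59.2 in mCherry-negative, 278 ± 28.5 in EGFP-positive and 625 ± 36.4 in EGFP-negative cells (SD, n = 3 each). Second came Bcas1 in mCherry-positive cells (105 ± 16.5 RPKM), Olig2 in mCherry-negative cells (168 ± 15.2), Bcas1 in EGFP-positive cells (37.6 ± 2.43) and Gpr17 in EGFP-negative cells (174 ± 12.2). In EGFP-positive cells Bcas1, Gpr17 (36.5 ± 11.7 RPKM), Olig2 (26.6 ± 13.4) and Sox10 (26.0 ± 1.25) followed each other within their spread. Gpr17 and Bcas1 (168 ± 0.748 RPKM) did so in EGFP-negative cells. In mCherry-positive cells Bcas1, Olig2 (89.9 ± 20.1 RPKM) and Gpr17 (85.8 ± 11.1) lay within their spread of each other, as did Bcas1 (109 ± 42.7) and Gpr17 (98.4 ± 24.0) in mCherry-negative cells. Myrf, Cspg4 and Nkx2-2 held ranks 8 to 10 in every group. Over mCherry-positive, mCherry-negative, EGFP-positive and lastly EGFP-negative cells, Myrf stood at 7.44 ± 1.16, 5.87 ± 3.02, 1.86 ± 0.224 and 8.33 ± 0.772 RPKM. Cspg4 stood at 4.24 ± 0.848, 5.48 ± 2.01, 3.27 ± 0.968 and 9.75 ± 0.223 RPKM in the same order. Nkx2-2 stood at 6.41 ± 1.10, 9.12 ± 3.90, 5.39 ± 0.912 and 17.3 ± 1.83 RPKM.

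The stretch just before the transcription start was available from RefSeq (build GRCm38.p6) for 5 of the 10 genes. Pdgfra was chosen for the precursor stage, and Olig2 because its ratio to its neighbour Olig1 was apart between sorts. Enpp6 was chosen as the committed gene with the greatest difference between the effects. The 3 stretches shown thus cover the range of patterns above. They run 5′ to 3′ on the plus strand, at chr5:75152001-75152250 (Pdgfra), chr16:91225300-91225456 (Olig2) and chr8:46986637-46986886 (Enpp6). Capitals mark matches to the motifs searched.
Pdgfra: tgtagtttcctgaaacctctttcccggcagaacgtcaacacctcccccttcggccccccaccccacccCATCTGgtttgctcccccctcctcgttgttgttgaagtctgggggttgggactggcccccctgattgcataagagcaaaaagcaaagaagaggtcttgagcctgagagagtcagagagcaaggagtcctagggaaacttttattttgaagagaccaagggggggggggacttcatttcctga
Olig2: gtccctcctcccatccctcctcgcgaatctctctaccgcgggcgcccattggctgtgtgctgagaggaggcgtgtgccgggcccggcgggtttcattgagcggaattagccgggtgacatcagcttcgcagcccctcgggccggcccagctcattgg
Enpp6: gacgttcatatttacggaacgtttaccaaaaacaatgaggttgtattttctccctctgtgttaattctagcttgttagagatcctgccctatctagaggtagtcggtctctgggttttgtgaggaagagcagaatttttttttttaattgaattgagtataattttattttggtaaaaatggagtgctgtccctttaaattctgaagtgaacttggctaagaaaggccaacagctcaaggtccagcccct
The letters searched on both strands of the 250 bases before the start included the E-box CANNTG, which basic helix-loop-helix factors read. Also searched was CAGATG, an E-box form known from OLIG factors, together with its relative CATATG; matches to either count as E-boxes too. The other letters searched were ACAAAG for SOX factors, then CACTTA for NKX2 factors, then GGGCGG for the GC box, and lastly TATAAA for the TATA box. Pdgfra held 1 E-box, CATCTG, which is CAGATG read on the other strand. Enpp6 held none of these letters. The Olig2 window held 2 GC boxes and 1 TATA box beyond the stretch shown, in bases that the annotation counts as exon. Of 32851 RefSeq promoters 66.2% held an E-box, 17.3% CAGATG or CATATG, 16.5% the SOX letters, 7.92% the NKX2 letters, 32.7% a GC box and 12.4% a TATA box. The Olig2 window was 66.8% G or C with 22 CpG, Pdgfra 54.4% with 4 and Enpp6 38.4% with 4, against medians of 52.4% and 6 over all promoters.

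In EGFP-positive cells 9 of 16 other precursor genes were lower, 1 (Susd5, at a log2 fold change of 1.36) was higher and 6 were not called, with a median log2 fold change of -0.69. Tnr, a matrix glycoprotein, averaged 30.3 ± 3.42 CPM in EGFP-positive and 113 ± 7.91 CPM in EGFP-negative cells (SD, n = 3 each). Pcdh15, a protocadherin, averaged 10.3 ± 1.73 and 44.2 ± 2.57 CPM, and Lhfpl3, a membrane protein, 59.8 ± 11.98 and 214 ± 19.99 CPM in the same order. Of these, 0 of 16 were called in the mCherry sort (median -0.32), with Ptprz1, a receptor phosphatase, at 1477 ± 372 CPM in mCherry-positive and 1191 ± 457 CPM in mCherry-negative cells and Lhfpl3 at 119.5 ± 28.7 and 166 ± 23.2 CPM. Both medians stand against 0.02 over all genes in the mCherry sort and -0.01 in the EGFP sort, as do those below.

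Of 15 other genes of the committed and early myelinating stage 8 were lower and 0 higher in EGFP-positive cells (median -0.48). The zinc-finger factor Zfp488, which promotes oligodendrocyte differentiation, averaged 9.31 ± 1.41 CPM in EGFP-positive and 47.2 ± 1.86 CPM in EGFP-negative cells. Itpr2, an intracellular calcium channel, averaged 30.5 ± 4.37 and 97.6 ± 8.53 CPM, and Lims2, whose exons overlap those of Gpr17 on the other strand, 29.4 ± 1.85 and 124 ± 5.33 CPM. Of the 15 genes 0 were called in the mCherry sort (median 0.24), with Sirt2, a deacetylase, at 732 ± 142 CPM in mCherry-positive and 698 ± 171 CPM in mCherry-negative cells and the kinase gene Fyn at 632 ± 84.5 and 752 ± 12.2 CPM. The difference between the effects was called, all positive, for 5 of these 15 genes, 4 of the 16 precursor genes and 7 of 14 genes of mature myelin. Of all 18063 genes 0.886% were called positive. Lists of other cell types differed too, with medians of 4.44 for microglia genes (2 of 10 called positive) and 2.00 for fibroblast genes (0 of 10 called). The median of the 10 genes was 1.40. It was 0.50 for neuron genes (1 of 13 called positive), 0.06 for astrocyte genes (1 of 10 called negative) and -1.18 for cycling genes (4 of 10 called negative).

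The genes of mature myelin, the stage after the 10, were lower in 8 and higher in 1 of 14 in EGFP-positive cells (median -1.63). Mbp, myelin basic protein, averaged 387 ± 10.3 CPM in EGFP-positive and 1289 ± 24.98 CPM in EGFP-negative cells, and the adhesion gene Mag 19.6 ± 1.12 and 109 ± 5.89 CPM (SD, n = 3 each). The mCherry sort had 1 of 14 called, Tspan2, a tetraspanin of oligodendrocytes, higher at 38.2 ± 7.23 CPM in mCherry-positive and 12.3 ± 3.39 CPM in mCherry-negative cells. Its log2 fold change of 1.64 had an adjusted p of 0.0349, and the call was lost, at 0.0711 to 0.173, without mCherry-positive replicate 2 or 3 or any one mCherry-negative library, at log2 fold changes of 1.46 to 1.84. In 3 of these 5 fits 0 of all genes tested were called. The list's median was 0.28 there.

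Of the ligands and regulators of the lineage 21 were tested in the EGFP sort, where 4 were higher and 4 lower (median -0.13). Pdgfd, a platelet-derived growth factor that acts mainly on the beta receptor, was higher at 36.0 ± 10.6 CPM in EGFP-positive and 9.71 ± 2.05 CPM in EGFP-negative cells, and Sox9, a factor of glial progenitors and astrocytes, at 697 ± 42.7 and 418 ± 10.6 CPM. Bmp4, which opposes oligodendrocyte formation and is made by committed precursors, was lower at 11.9 ± 0.777 and 56.9 ± 2.34 CPM. The mCherry sort had 0 of 22 called (median -0.01), with Sox9 at 455 ± 56.9 CPM in mCherry-positive and 387 ± 58.9 CPM in mCherry-negative cells. Tcf4, an E protein that pairs with OLIG2, was at 445 ± 24.0 and 656 ± 55.4 CPM there (log2 fold change -0.55, adjusted p 0.121), and passed the threshold with DESeq2 (0.019) and in the fit of all 12 libraries (0.00951). Pdgfa, the main ligand of PDGFRA, was not called in either sort, at log2 fold changes of 0.08 in the mCherry sort and -0.46 in the EGFP sort.

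**Figure D5:**
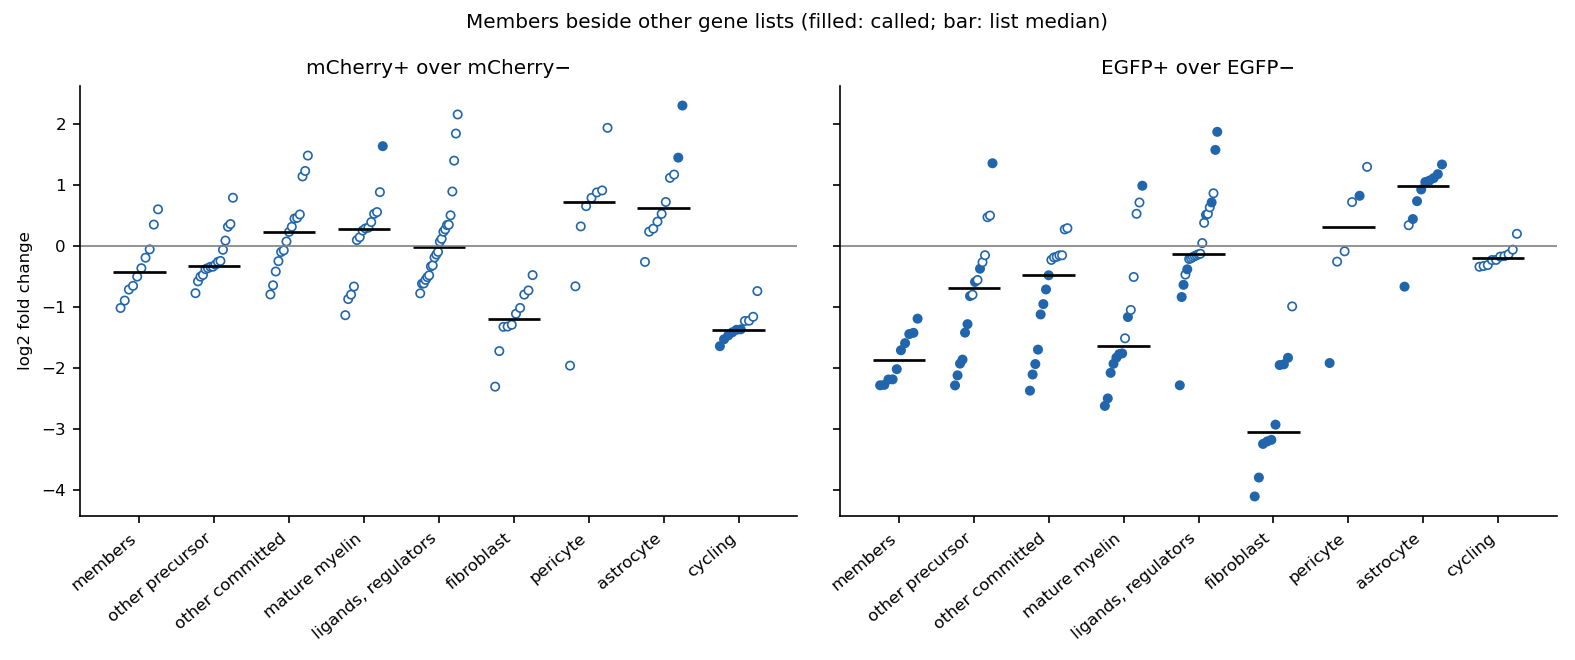
Log2 fold change of every tested gene of the 10 described here and of 8 other lists (filled points called, bars the list median), mCherry-positive over mCherry-negative on the left and EGFP-positive over EGFP-negative on the right. In the EGFP sort the 10 genes lie wholly under 0, and the fibroblast list has the lowest median of those drawn (-3.05). In the mCherry sort the 10 genes spread around their median of -0.43. Neuron, microglia and endothelial genes are not drawn.

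Genes of other cell types also differed between the sorted cells, and their part in the results above was not tested. In EGFP-positive cells 8 of 10 astrocyte genes were higher and 1 was lower, with a summed level of 17584 to 22025 CPM in EGFP-positive libraries, against 9196 to 9450 CPM in EGFP-negative ones. Gfap, an intermediate filament, averaged 6983 ± 187 and 3265 ± 57.1 CPM, Agt, angiotensinogen, 561 ± 29.3 and 244 ± 16.3 CPM, and Aldoc, a glycolytic enzyme, 2261 ± 103 and 1336 ± 24.6 CPM in EGFP-positive and EGFP-negative cells. In the mCherry sort 2 of 10 were higher, Agt at 439.5 ± 135 CPM in mCherry-positive and 89.3 ± 14.3 CPM in mCherry-negative cells and Gfap at 3001 ± 595 and 1104 ± 174 CPM, with summed levels of 9763 to 14243 CPM in mCherry-positive and 4870 to 8734 CPM in mCherry-negative libraries. Both mCherry calls were lost without mCherry-negative replicate 1 or 2 or mCherry-positive replicate 3 (adjusted p of 0.0844 to 0.158), in fits that called 0 of all genes tested, and Gfap also without mCherry-negative replicate 3 (0.0605). The log2 fold change of Gfap was 1.33 to 1.61 without single libraries, against 1.45 with all 6.

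Of 10 fibroblast and mesenchymal genes 9 were lower in EGFP-positive cells (median -3.05), among them the collagen genes Col1a1, at 12.03 ± 2.503 CPM in EGFP-positive and 109.5 ± 13.7 CPM in EGFP-negative cells, and Col3a1, at 17.0 ± 6.71 and 153 ± 7.77 CPM, and the matrix proteoglycan Dcn, at 2.14 ± 0.439 and 29.5 ± 2.97 CPM. In the fit of all 12 libraries Col1a1 (adjusted p 0.054) and Col3a1 (0.114) were not called in the EGFP sort. In the mCherry sort 0 of 10 were called (median -1.196), with Col3a1 at 50.9 ± 45.8 and 110.4 ± 75.7 CPM and Col1a2, another collagen, at 22.7 ± 15.6 and 39.6 ± 27.1 CPM in mCherry-positive and mCherry-negative cells. No fibroblast gene was at 0 in all 3 libraries of any group.

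Of 13 neuron genes 7 were lower in EGFP-positive cells (median -0.51), among them Elavl3, an RNA-binding protein, at 32.6 ± 6.33 and 66.8 ± 9.39 CPM, Stmn2, stathmin 2, at 99.8 ± 4.98 and 148 ± 5.19 CPM, and Tubb3, neuronal tubulin, at 257 ± 19.8 and 356 ± 16.5 CPM in EGFP-positive and EGFP-negative cells. These 3 were not called in the fit of all 12 libraries (adjusted p of 0.0799, 0.347 and 0.446), and Tubb3 also not without EGFP-positive replicate 2 or EGFP-negative replicate 1 or 2 (0.0552 to 0.0623). For the neuron genes 0 of 13 were called in the mCherry sort (median 0.04), and summed levels were 1229 to 2215 CPM in mCherry-positive and 1729 to 2354 CPM in mCherry-negative libraries. In EGFP-positive cells 8 of 10 microglia genes were lower and 1 was higher (median -2.73), with summed levels of 9.89 to 11.7 CPM in EGFP-positive against 39.5 to 60.3 CPM in EGFP-negative libraries. The mCherry sort had 0 of 10 called (median 1.60), with sums of 804, 97.9 and 99.6 CPM in mCherry-positive and 35.7, 57.9 and 202 CPM in mCherry-negative libraries. Endothelial genes were near the floor, with summed levels of at most 4.59 CPM in any library and 0 of 3 tested genes called in either sort.

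Cycling genes were lower in mCherry-positive cells for 6 of 10 (median -1.37) and were not called for any of 10 in EGFP-positive cells (median -0.20). The 10 cycling genes summed to 342.5 to 522 CPM in mCherry-positive and 986 to 1151 CPM in mCherry-negative libraries, and to 1104 to 1226 CPM in EGFP-positive against 1259 to 1312 CPM in EGFP-negative libraries. Ube2c, which drives exit from mitosis, averaged 31.3 ± 3.98 CPM in mCherry-positive and 98.1 ± 9.13 CPM in mCherry-negative cells, Cdk1, the mitotic kinase, 31.1 ± 6.49 and 90.1 ± 4.78 CPM, and Mcm2, of the replicative helicase, 54.0 ± 6.17 and 139.6 ± 16.8 CPM. These 3 were not called without mCherry-positive replicate 2 or 3 or mCherry-negative replicate 1 or 2 (adjusted p of 0.0545 to 0.158), nor Cdk1 without mCherry-negative replicate 3 (0.0515). Without single libraries the log2 fold changes stayed at -1.72 to -1.54 for Ube2c, -1.70 to -1.40 for Cdk1 and -1.41 to -1.25 for Mcm2, and the fits without mCherry-positive replicate 3 or mCherry-negative replicate 1 or 2 called 0 of all genes tested.

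For 5 of the genes the closest patterns over the 12 libraries were sought among 11408 genes averaging 5 CPM or more, by the root mean square difference of log2(CPM + 0.5) after centring each gene on its own mean. For Bcas1 these were Ppp1r16b (0.12), Fa2h (0.19), Bmp4 (0.19), Zfp488 (0.23) and Tubb4a (0.25). For Olig1 they were Traf4 (0.10), Igsf21 (0.15), Slc29a4 (0.20), Gpd1 (0.21) and Rtn2 (0.21). For Sox10 they were Lims2 (0.18), Inava (0.23), Dmrtb1 (0.28), Elfn2 (0.30) and Nkx2-2 (0.31), itself 1 of the 10 genes. For Gpr17 they were Slc1a1 (0.21), Vxn (0.26), Fa2h (0.26), Plppr1 (0.30) and Bcas1 (0.30). For Pdgfra they were Brinp3 (0.21), Cntn1 (0.26), Clgn (0.28), Lhfpl3 (0.31) and Armh4 (0.31). Among the other 9 of the 10 genes, the one nearest to Pdgfra was Gpr17, at rank 61 (0.48), and the one nearest to Olig1 was Nkx2-2, at rank 431 (0.41). Olig2 stood at rank 9231 from Olig1 (0.87) although the genes are neighbours on chromosome 16.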

How the data were processed

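The data were 12 tables of raw counts, whole reads per Ensembl gene as deposited by the authors, 1 per library. The submitters' processing notes name cutadapt 1.8, STAR 2.5.2b, HTSeq 0.6.1 and genome build GRCm38; the settings, release of the annotation and strand mode are not given in the sources used here. Per the labels' protocols, cDNA came from SMART-Seq v4 with 11 cycles of PCR and libraries from 150 pg of cDNA with Nextera XT, without molecular identifiers. Lines naming no gene held 31.4% to 38.2% of reads and were left out. Symbols were found in GENCODE annotation for 48349 of 48709 identifiers, and gene positions and exonic lengths are from it.

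Counts were tested in R 4.3.3 by edgeR 4.0.16 (TMM scaling, filterByExpr with a minimum count of 10 and a minimum total of 15, quasi-likelihood test, Benjamini-Hochberg adjustment over all genes tested, called under 0.05). The 6 libraries of a sort were fitted by themselves on group alone, and the difference of the effects and the comparisons between sorts in 1 fit of 12. The fit within each sort was tested on simulated data, and the fit of 12 libraries was not. DESeq2 1.42.0 and limma-voom (limma 3.58.1), other scalings and filters, a replicate block and leaving out each library were tried as alternatives. Exact permutation tests were 2-sided. The 10 genes and the lists were chosen with earlier results of these data known. From each list the text names up to 3 called genes of smallest adjusted p, or the 2 of highest CPM where none was called; 1 gene so chosen is not reported here, and Pdgfa was added because it is the main ligand of PDGFRA. One listed symbol, 9630013A20Rik, had no identifier matched and was not analysed here. Levels carry counting error beside the spread shown: a floor of 3 reads, set by choice and not by a test, was 0.0912 to 0.184 CPM.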

Additional observations from a re-analysis of the deposited data

Results flagged for a closer look

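For 5 of the 10 genes the effect of the mCherry sort and that of the EGFP sort differed by a direct test, the interaction term in the fit of all 12 libraries. Of 18063 genes tested 0.886% were called positive. On the log2 scale the mCherry effect minus the EGFP effect was 1.60 for Sox10, 2.06 for Gpr17, 2.10 for Bcas1, 2.59 for Enpp6 and 2.51 for Myrf. The calls for Sox10 and Myrf were lost without EGFP-positive replicate 2 or without any one EGFP-negative library. The 2 sorts differ in virus, reporter and RNA input, which cannot be told apart.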

How the results depend on the processing

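The EGFP count of 10 genes lower was 10 under every other scaling, filter, test and fit tried and 9 to 10 without single libraries. In the mCherry sort the count was 0 with DESeq2 size factors and without any single library (3 of those 6 fits called 0 of all genes), 2 (both lower) without a filter, with the stricter filter, with DESeq2 and with limma-voom, and 1 (lower) in the fit of all 12 libraries. The count for the difference of the effects was 5 to 7 under the other settings and 3 to 5 without single libraries. Between positive cells it was 6 to 7, and 5 to 6 without single libraries. Between negative cells it was 3 with DESeq2 size factors or the stricter filter, 5 without a filter and with DESeq2, 4 with limma-voom, and 0 to 4 without single libraries. The calls over all genes moved too: in the mCherry sort they were 885 higher and 591 lower with DESeq2 and 485 and 293 without a filter, against 94 and 114 with the filter and edgeR. In the fit of all 12 libraries they were 883 higher and 829 lower of 18063 genes tested in the mCherry sort. In the EGFP sort that fit called 458 higher and 343 lower, against 1468 and 1154 in the sort's own fit. With DESeq2 the calls over all genes were 584 and 310 for the difference, against 160 and 101. Between negative cells DESeq2 called 800 and 629, against 482 and 233. The cause of these changes was not tested.

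The replicate number as a replicate block gave 10 genes in the EGFP sort, 1 in the mCherry sort (Olig1, lower, adjusted p 0.0435) and 5 for the difference. Same-numbered libraries did not deviate together in every pair (correlations over genes of 0.114, -0.0046 and 0.0287 in the EGFP sort and 0.126, -0.0191 and 0.0246 in the mCherry sort), so the numbers were not taken to pair them. Correlations of unlike-numbered libraries ran from -0.101 to 0.0778 in the EGFP sort and -0.137 to 0.126 in the mCherry sort. With the block the common coefficient of variation of the fit went from 0.189 to 0.158 in the EGFP sort. In the mCherry sort it went from 0.382 to 0.368. Over all genes the block called 1874 higher and 1535 lower in the EGFP sort, and 188 and 155 in the mCherry sort. Whether the libraries are paired is thus not settled here. A block could not be fitted between sorts, where the same number marks different cultures' libraries.

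Some values changed sign, none of them called, and most of them near 0. Without single libraries the mCherry log2 fold change ran from -0.338 to 0.003 for Gpr17, -0.287 to 0.298 for Bcas1 (0.014 with limma-voom and 0.010 with the block), -0.010 to 0.686 for Myrf, -0.081 to 0.309 for Sirt2, -0.035 to 0.167 for Map2, -0.012 to 2.678 for C1qb and -0.131 to 2.732 for C1qc. The last 2 stood at 1.56 and 1.64 with all libraries and were at their lowest without mCherry-positive replicate 1. The difference for Olig1 ran from -0.105 to 0.324. Olig1 between positive cells ran from -0.284 to 0.141 (0.010 with DESeq2 size factors and with DESeq2), and Pdgfra between negative cells from -0.227 to 0.341 (-0.036 with limma-voom). A pseudocount of 2 in place of 0.5 left 24 of the 25 nearest-pattern genes in place.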
